A study of Mus musculus with 4 samples.

Results

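Transcription factors that mark mesenchymal progenitors were compared between DPPIV+ and DPPIV- fibro-adipogenic progenitors (FAPs) of mouse skeletal muscle. The set was chosen by name, with earlier results of these data known. It holds 10 genes (Osr1, Osr2, Tcf21, Twist1, Twist2, Prrx1, Prrx2, Snai1, Snai2 and Zeb1) of the 24421 gene symbols counted. FAPs are stromal cells of the muscle interstitium, sorted here as viable cells that lacked CD31 and CD45 and carried Sca1. Dpp4 encodes the surface peptidase DPPIV. The 4 bulk RNA libraries came from 2 wild-type mice, each of which gave 1 DPPIV- and 1 DPPIV+ library. Both mice had received a CSF1R inhibitor, a treatment used to deplete resident macrophages, for 3 weeks and then a regular diet for 3 days, so all libraries share this treatment, and no untreated FAPs were analysed here. The labels call the mice wild type and give the tibialis anterior as the source, whereas the protocol describes muscle of both hindlimbs. The study used adult mice of both sexes, and the age and sex of these mice are not given in the sources used here. Values of a cell type are given in the order mouse 1, mouse 2.

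These factors are known from embryonic mesenchyme. Prrx1 and Prrx2 are paired-related homeobox factors of limb and connective tissue mesenchyme, and Osr1 and Osr2 are odd-skipped zinc finger factors, of which Osr1 marks embryonic precursors of FAPs. Twist1, Twist2 and Tcf21 are basic helix-loop-helix (bHLH) factors that bind DNA as dimers with E proteins, while Id proteins capture the E proteins and so oppose them. Snai1, Snai2 and Zeb1 are zinc finger repressors that bind E-box sequences, and together with Twist1 they are best known for the epithelial-to-mesenchymal transition (EMT), in which epithelial genes are shut off.

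The sort was first checked on marker genes. Dpp4 had 64.6 ± 35.4 CPM (counts scaled to a common library size, with TMM factors; SD, n = 2 mice) in DPPIV- FAPs, against 650 ± 108 CPM in the DPPIV+ cells. Pdgfra, the receptor that defines FAPs, had 1564 ± 127 and 1198 ± 57.6 CPM. All 10 FAP identity genes listed passed the filter and were called, where 33.0% of all genes tested were. Of the 10, 4 were higher in DPPIV+ FAPs (Thy1, Mfap5, Ly6a and Cd34) and 6 lower, Pdgfra among them. By contrast, the endothelial gene Pecam1 had 11.2 to 20.4 CPM, the leukocyte gene Ptprc 6.4 to 9.7 CPM, and the satellite cell gene Pax7 at most 10 reads in a library. Library totals ran from 18240110 to 20879405 counts, and 3 counts, the most that a count of 0 allows, correspond to 0.143 to 0.166 CPM by counting error alone.

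The factors did not change together. Osr2, Zeb1, Prrx1 and Twist1 were higher in DPPIV+ FAPs, Prrx2, Snai2 and Snai1 were lower, Osr1 and Twist2 did not pass the test, and Tcf21 was barely detected. Of the 4 pairs of paralogues, only Snai1 and Snai2 passed in the same direction. Of the 10 genes, 9 reached 2 CPM in at least 2 libraries and were tested, and 7 of these passed a threshold of 0.05 on the adjusted p (from the quasi-likelihood test of edgeR with mouse as a block, Benjamini-Hochberg adjustment over 11588 genes), 4 toward DPPIV+ and 3 toward DPPIV- FAPs. Over all genes tested, 33.0% passed, 15.9% higher and 17.2% lower. This balance turned with offsets for GC content and length, which gave 2090 higher and 1636 lower, and upper-quartile scaling gave 1489 higher and 2295 lower. For 8 of the 9 genes the libraries of the cell types did not overlap in CPM, against 56.3% of all genes tested. It follows that the same 8 genes had the same direction in both mice, which adds nothing to the first count. The median log2 fold change of the 9 genes was 0.02 (-0.00 over all genes tested), and the median of its absolute size was 0.73, against 0.16 over all genes tested. Because the genes were chosen with earlier results of these data known, the values over all genes are a background only. Whether the set differs more than other genes was not tested.

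**Figure D1:**
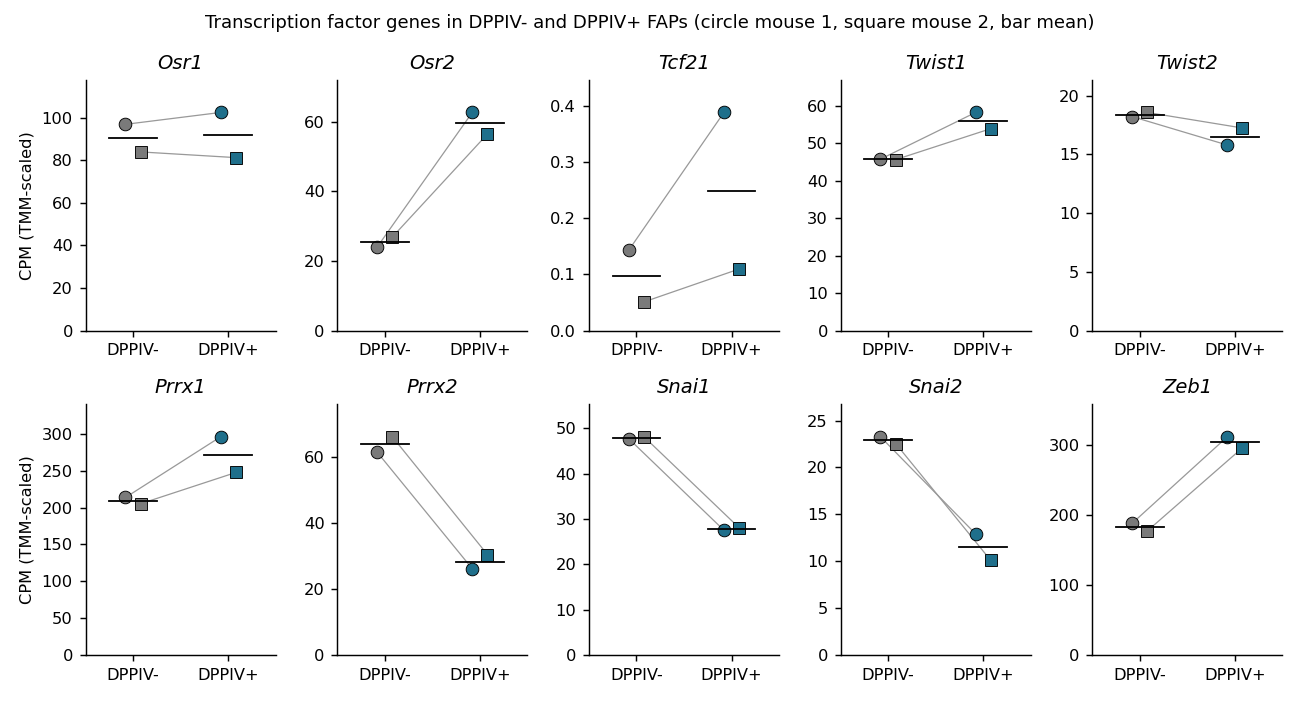
CPM of the 10 transcription factor genes in each library (y axes from 0, scaled per gene), with grey points for DPPIV- FAPs, blue points for DPPIV+ FAPs, circles for mouse 1, squares for mouse 2, bars at the mean and lines joining libraries of 1 mouse. Osr2 runs from 24.0 to 62.7 CPM in mouse 1 and Prrx2 from 61.6 to 26.2 CPM, while the points of Osr1 lie between 81.3 and 103 CPM in both cell types.

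**Figure D2:**
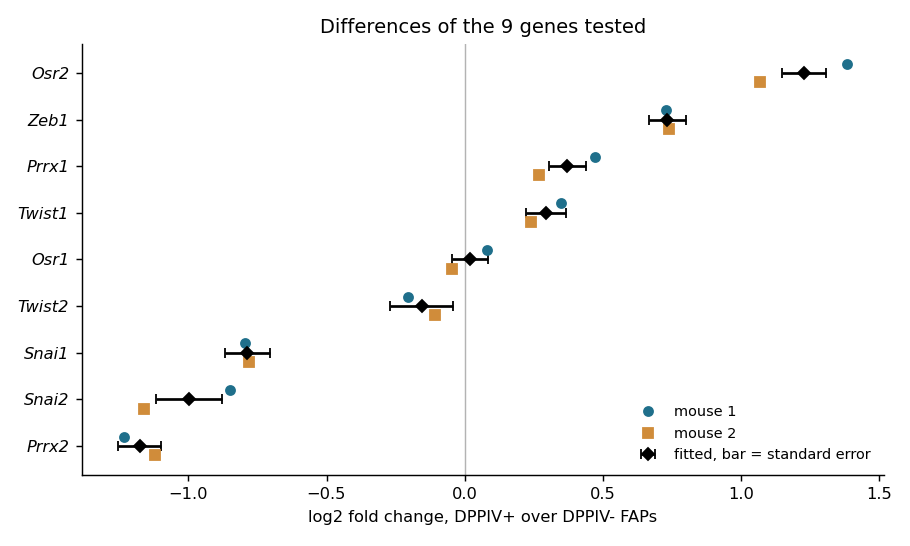
Log2 fold changes of the 9 genes tested, DPPIV+ over DPPIV- FAPs, with the fitted value and its standard error (diamonds) and the ratio in each mouse. Osr2 is at the upper end with 1.23 and Prrx2 at the lower end with -1.18, and only Osr1 has its mice on opposite sides of 0.

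Prrx1 and Prrx2 moved in opposite directions. Prrx2 (ENSMUSG00000039476.13, chromosome 2 of GRCm38 from 30834972 to 30881251) had 1291 and 1298 reads in DPPIV- and 472 and 556 in DPPIV+ libraries. This corresponds to 61.6 and 66.2 CPM in the DPPIV- libraries and 26.2 and 30.4 CPM in the DPPIV+ libraries. Both DPPIV- libraries thus lay above both DPPIV+ libraries, and the level was 2.26-fold higher in DPPIV- FAPs (log2 fold change -1.18, standard error 0.08, adjusted p = 4.27e-50). This p rests on a spread shared with genes of like abundance, and edgeR's test without the term for mouse gave an adjusted p of 0.000244. Of all genes tested, 3.78% had a more negative log2 fold change. Prrx1 (ENSMUSG00000026586.16, chromosome 1 from 163245119 to 163313710) had 214 and 205 CPM in the DPPIV- libraries, and 296 and 248 CPM in the DPPIV+ libraries. Again the libraries did not overlap, with a 1.29-fold higher level in DPPIV+ FAPs (log2 fold change 0.37, standard error 0.07, adjusted p = 2.59e-07). Prrx1 passed every test against no change that was run, but not the test against a 1.5-fold change (adjusted p = 1, and from 3.27e-08 to 1 over its 10 alternatives).

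The odd-skipped factors differed in another way, in that 1 of the pair changed and the other did not pass the test. Osr2 (ENSMUSG00000022330.5, chromosome 15 from 35296098 to 35303305) had 503 and 527 reads in DPPIV- and 1131 and 1032 in DPPIV+ libraries, or 24.0 and 26.9 against 62.7 and 56.5 CPM. Both DPPIV+ libraries exceeded both DPPIV- libraries, by 2.34-fold in the fit (log2 fold change 1.23, standard error 0.08, adjusted p = 2.66e-51). This p rests on a spread shared with genes of like abundance, and edgeR's test without the term for mouse gave an adjusted p of 0.000191. Of the genes tested, 97.8% had a lower log2 fold change, and among the 9 factors this was the largest fitted difference. The order was not stable, since with upper-quartile scaling Prrx2 (-1.22) was ahead of Osr2 (1.19), and in mouse 2 alone Snai2 (-1.16) and Prrx2 (-1.12) were ahead of Osr2 (1.07). Osr1 (ENSMUSG00000048387.8, chromosome 12 from 9570116 to 9581500) had 2033 and 1646 reads in DPPIV- and 1850 and 1485 in DPPIV+ libraries, which is 90.5 ± 9.17 CPM (SD, n = 2) in DPPIV- FAPs and 103 and 81.3 CPM in the DPPIV+ libraries. Here the cell types overlapped, and the higher CPM in each cell type came from mouse 1. The log2 fold change of Osr1 was 0.02, with a 95% interval from -0.11 to 0.15, and its adjusted p was 0.877. Between the mice, Osr1 was lower in mouse 2 by a log2 difference of -0.27 (adjusted p = 0.00114 for the mouse term of the same edgeR fit), which made it the 1 gene of the 9 to pass for mouse, where 8.98% of all genes tested passed.

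Among the bHLH factors, Twist1 was modestly higher in DPPIV+ FAPs. Twist1 (ENSMUSG00000035799.6, chromosome 12 from 33957671 to 33959829) had 45.7 and 45.6 CPM in the DPPIV- libraries, and 58.2 and 53.9 CPM in the DPPIV+ libraries. The cell types did not overlap, and the fold was 1.23 (log2 fold change 0.29, standard error 0.07, adjusted p = 0.000254). This call depended on the test, since DESeq2's Wald test gave an adjusted p of 0.161 and the test against a 1.5-fold change gave 1, within a range from 9.58e-05 to 1 over the 10 alternatives. Twist2 (ENSMUSG00000007805.4, chromosome 1 from 91801461 to 91848028) had 382 and 364 reads in the DPPIV- libraries against 285 and 315 in the DPPIV+ libraries, or 18.2 and 18.6 against 15.8 and 17.2 CPM. Its libraries did not overlap either, but the log2 fold change of -0.16 did not pass (95% interval from -0.38 to 0.07, adjusted p = 0.335). By the GENCODE annotation, 1477 exon bases of Twist2 are shared with the antisense gene Gm29100, which is not among the gene symbols counted. Whether the counting used strand is not given in the sources used here. Tcf21 (ENSMUSG00000045680.8, chromosome 10 from 22817281 to 22820174) had 3 and 1 reads in DPPIV- and 7 and 2 in DPPIV+ libraries. These values lay around the limit set by a count of 0, apart from the 7 reads (0.388 CPM) in mouse 1. Tcf21 did not pass the filter, so its difference was not tested.

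Both Snail factors fell in DPPIV+ FAPs. Snai1 (ENSMUSG00000042821.7, chromosome 2 from 167538195 to 167542814) had 1000 and 943 reads in DPPIV- and 496 and 512 in DPPIV+ libraries. The means were 47.9 ± 0.298 and 27.8 ± 0.382 CPM (SD, n = 2), so that the mice of 1 cell type differed far less than the cell types. The level was 1.73-fold higher in DPPIV- FAPs (log2 fold change -0.79, standard error 0.08, adjusted p = 1.70e-20). Snai2 (ENSMUSG00000022676.7, chromosome 16 from 14705852 to 14709385), which encodes the factor also called Slug, had 488 and 442 reads against 233 and 184, or 23.3 and 22.6 against 12.9 and 10.1 CPM. The libraries did not overlap, and the level was 2.00-fold higher in DPPIV- FAPs (95% interval of the log2 fold change from -1.23 to -0.77, adjusted p = 5.03e-16). Of the genes tested, 4.90% had a more negative log2 fold change than Snai2 and 6.73% than Snai1.

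Zeb1 went the other way from the Snail factors. It had 188 and 177 CPM in the DPPIV- libraries, and 312 and 296 CPM in the DPPIV+ libraries. These libraries did not overlap, and the log2 ratios of mouse 1 and mouse 2, 0.73 and 0.74, were nearly equal. The fold was 1.66 (log2 fold change 0.73, standard error 0.07, adjusted p = 4.03e-26), and 4.33% of genes tested had a larger log2 fold change. An opposite-strand gene, Gm10125, shares 198 exon bases with Zeb1 and had 18 to 23 reads per library, against 3476 to 5628 reads of Zeb1. With DESeq2's Wald test, 6 of the 7 factors called by edgeR also passed, all but Twist1, where 16.6% of all genes tested passed.

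Promoter sequences were read for E-boxes, the motif that the Snail and Zeb factors are known to bind. RefSeq promoters (GRCm38.p6) were matched by symbol for 6 of the 10 genes (Twist1, Twist2, Prrx1, Prrx2, Snai1 and Tcf21). The 250 bases before each start were searched on both strands for CACCTG, the E-box letters typical of Snail and Zeb sites (CAGGTG on the other strand). The motif was found in 1 of the 6 windows and in 17.2% of 32817 promoter windows of the same length, so its presence in 1 of 6 is no finding about these genes. Snai1, lower in DPPIV+ FAPs, held it at position -126 from the start. It was absent from the windows of Prrx2, also lower, of Twist1 and Prrx1, both higher, and of Twist2 and Tcf21. The windows of Snai1 and Twist1 are the only ones of the 6 that overlap no annotated exon. They are printed 5′ to 3′ on the plus strand, at chr2:167537945-167538194 for Snai1 and chr12:33957421-33957670 for Twist1, with the motif in capitals.
Snai1: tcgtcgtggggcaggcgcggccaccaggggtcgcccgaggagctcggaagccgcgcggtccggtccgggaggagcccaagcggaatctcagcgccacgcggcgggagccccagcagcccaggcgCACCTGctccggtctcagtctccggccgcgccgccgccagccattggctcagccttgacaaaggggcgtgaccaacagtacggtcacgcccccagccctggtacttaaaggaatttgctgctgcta
Twist1: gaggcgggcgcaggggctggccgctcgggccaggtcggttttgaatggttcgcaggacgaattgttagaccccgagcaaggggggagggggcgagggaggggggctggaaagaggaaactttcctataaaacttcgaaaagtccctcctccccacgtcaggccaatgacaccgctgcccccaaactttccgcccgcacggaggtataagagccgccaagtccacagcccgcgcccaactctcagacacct

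The balance within each pair of paralogues was then followed library by library, as the share of the pair's reads that belonged to 1 gene. Such a share does not depend on library size, and its Wilson 95% interval covers counting error only. Prrx1 held 77.6% (76.5 to 78.7) and 75.6% (74.4 to 76.7) of the Prrx reads in the DPPIV- libraries, against 91.9% (91.2 to 92.6) and 89.1% (88.2 to 89.9) in the DPPIV+ libraries. The share of Osr1 among Osr reads was 80.2% (78.6 to 81.7) and 75.7% (73.9 to 77.5) in DPPIV- FAPs and 62.1% (60.3 to 63.8) and 59.0% (57.1 to 60.9) in DPPIV+ FAPs. For both pairs, the gap between cell types was larger than the gap between mice, and the intervals of the cell types did not overlap. The shares of the Twist pair lay closer together, with Twist1 at 71.5% and 71.1% in DPPIV- FAPs and 78.7% and 75.8% in DPPIV+ FAPs. Snai1 held 67.2% and 68.1% of the Snail reads in DPPIV- FAPs and 68.0% and 73.6% in DPPIV+ FAPs, so the shares of the cell types lay close together in mouse 1. With 2 mice, an exact paired permutation test cannot reach 0.05, and none was run on these shares.

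In summed level, the pairs also differed. Prrx1 and Prrx2 together had 275 and 271 CPM in the DPPIV- libraries, and 322 and 278 CPM in the DPPIV+ libraries. Osr1 and Osr2 together had 121 and 111 CPM against 165 and 138 CPM. The Snail pair had 71.0 and 70.7 CPM against 40.4 and 38.1 CPM, the only 1 of the 4 sums that was lower in the DPPIV+ libraries of both mice. The longest exact stretch common to transcripts of a pair was 23 bases for Osr1 and Osr2, Twist1 and Twist2, and Snai1 and Snai2, and 19 bases for Prrx1 and Prrx2. Beyond the pairs, BLAST found close matches of Osr1 in 641 other genes (longest 61 bases) and of Prrx1 in 588 (67). Snai2 had them in 52 (90), Zeb1 in 9 (198) and Twist2 in 1 (1468), while Osr2, Tcf21, Twist1, Prrx2 and Snai1 had 0. How reads in such matches were counted is not given in the sources used here.

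**Figure D3:**
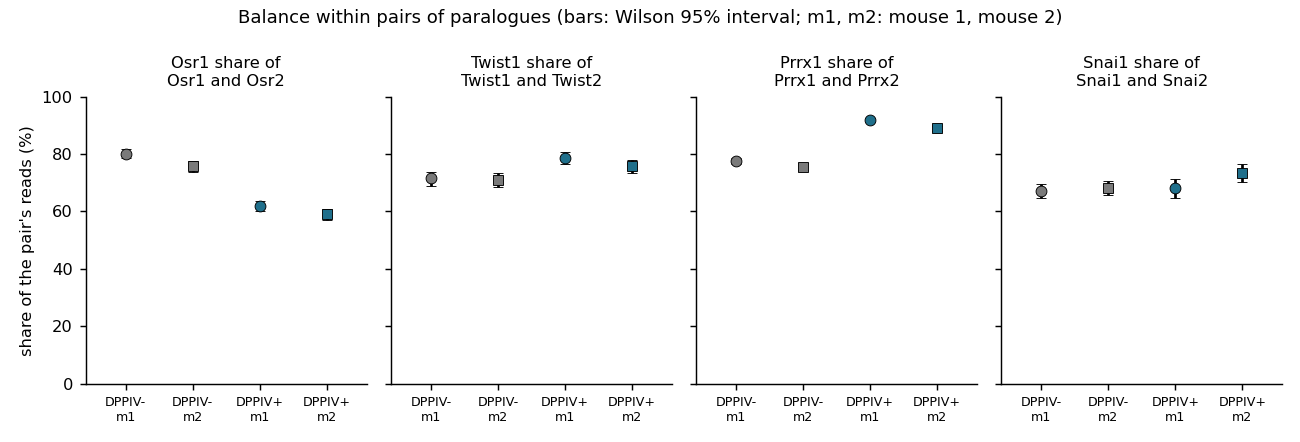
Share of the reads of each paralogue pair that belonged to the gene named before the word share, per library, on a percent axis from 0 to 100, with Wilson 95% intervals. In DPPIV+ FAPs the share of Osr1 is 62.1% and 59.0% and that of Prrx1 is 91.9% and 89.1%, and the points of the cell types lie closer together for the Twist and Snail pairs.

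Levels of different genes were compared per length, as CPM per kilobase of annotated exon. Osr1 was the highest of the 10 genes in both cell types, with 43.8 ± 4.44 in DPPIV- FAPs and 44.5 ± 7.27 in DPPIV+ FAPs (SD, n = 2). In DPPIV- FAPs it was followed by Prrx2 with 32.6 ± 1.68, Snai1 with 29.5 ± 0.184 and Twist1 with 28.1 ± 0.0534 CPM per kilobase. In DPPIV+ FAPs the next were instead Twist1 with 34.4 ± 1.88, Zeb1 with 29.6 ± 1.08 and Prrx1 with 24.6 ± 3.10, and Prrx2 was at rank 7 with 14.4 ± 1.54. The libraries of neighbours in these orders did not overlap, except for Snai1 and Osr2 (17.1 ± 0.236 and 16.4 ± 1.21) and Snai2 and Twist2 (5.69 ± 0.994 and 5.21 ± 0.323) in DPPIV+ FAPs. Tcf21, with 0.0413 and 0.106 CPM per kilobase, was last in both. The exon length used for Prrx1 was 11.066 kb and that for Zeb1 10.266 kb, the union over all annotated isoforms, so the levels of these genes per length would be higher on a shorter isoform. The order, with Osr1 first, therefore holds for the lengths used only.

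**Figure D4:**
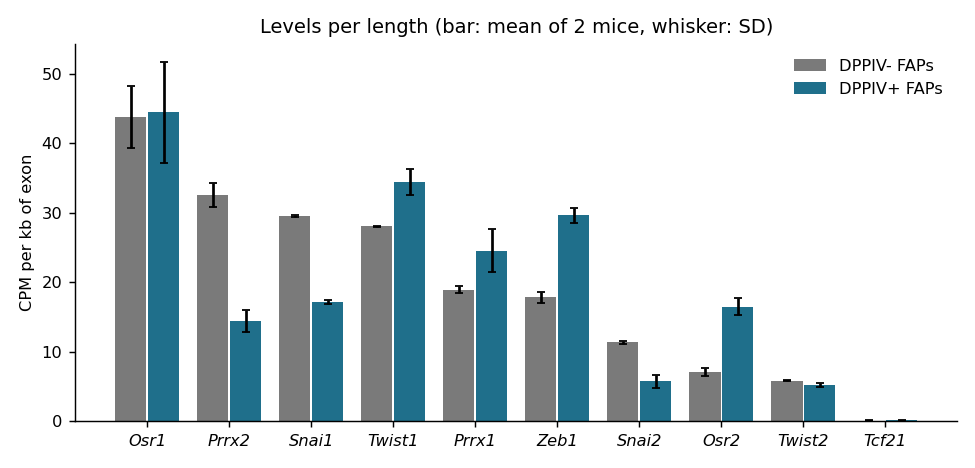
Levels of the 10 genes per length, in CPM per kilobase of exon (bars from 0, mean of 2 mice; whiskers, SD), ordered by the level in DPPIV- FAPs. At the exon lengths used, Osr1 leads in both cell types, and Prrx2 has 32.6 in DPPIV- FAPs and 14.4 in DPPIV+ FAPs.

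Osr2, the factor with the largest fitted change under TMM scaling, was set beside the genes whose pattern over the 4 libraries was most like it, by Euclidean distance in centred log2 CPM. These were Srd5a1 (distance 0.0421), Fgf2 (0.0683), Smurf2 (0.0818), Trpv4 (0.114) and Vash1 (0.119). Smurf2, a ubiquitin ligase of TGF-beta and BMP signalling, had 73.7 and 76.5 CPM in the DPPIV- libraries, and 189 and 168 CPM in the DPPIV+ libraries. A likeness over 4 libraries is a description of these libraries only.

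Most dimer partners of the bHLH factors and Id genes were lower in DPPIV+ FAPs. Of 7 genes listed and tested, 6 fell, where 17.2% of all genes tested fell, and Tcf3 did not pass (log2 fold change -0.09), with a median of -0.41. Among E proteins, Tcf4 went from 287 ± 3.26 to 216 ± 4.63 CPM (log2 fold change -0.41) and Tcf12 from 137 ± 2.30 to 109 ± 1.02 CPM (-0.34). Among their inhibitors, Id2 went from 39.6 ± 1.16 to 22.4 ± 0.156 CPM (-0.82) and Id1 from 7.75 ± 0.432 to 3.09 ± 1.27 CPM (-1.34). Id3 fell less evenly, with log2 ratios of -0.11 and -0.54 by mouse and a fitted value of -0.32. Id4 fell from 4.30 ± 0.275 to 1.27 ± 0.478 CPM (-1.76), and it was tested only because the DPPIV- libraries reached 2 CPM. With 2 CPM required in at least 3 libraries, 6 genes were tested and 5 fell, where 31.3% of all genes tested were called. With DESeq2's Wald test, the count for this list was also 6, where 16.6% of all genes tested were called.

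Relatives of the factors and corepressors that work with Snail and Zeb proteins were counted in the same way. Of 13 relatives, 8 were tested, 1 rose and 3 fell, so 4 of 8 were called where 33.0% of all genes tested were, with a median log2 fold change of -0.27. Of these calls, Scx and Tcf23 passed the filter only through the cell type where they were higher. With 2 CPM required in at least 3 libraries, 6 were tested and 2 called, where 31.3% of all genes tested were called. The share called is thus no finding about the list. Zeb2, the paralogue of Zeb1, had a log2 fold change of 0.02 and did not pass. Scx, a bHLH factor of tendon, rose from 1.30 ± 0.620 to 5.74 ± 2.95 CPM (log2 fold change 2.14), passing the filter only through DPPIV+ FAPs. Msc, a bHLH factor close to Tcf21, fell from 22.2 ± 3.27 to 14.8 ± 0.908 CPM (-0.58), Hand2 from 3.54 ± 0.692 to 2.06 ± 0.255 CPM (-0.77) and Tcf23 from 2.35 ± 0.217 to 1.35 ± 0.440 CPM (-0.80), the last passing the filter only through DPPIV- FAPs. DESeq2's Wald test kept the calls of Scx and Msc, with adjusted p-values of 0.411 for Hand2 and 0.546 for Tcf23. Of 12 corepressor genes, all tested, Limd1 rose (0.19) and Ctbp2 fell (-0.29), which is 16.7% of the list, and the median was -0.00. DESeq2's Wald test called 0 of the 12, where it called 16.6% of all genes tested. It had 0 of the 12 at an unadjusted p under 0.05, where edgeR's test had 3.

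Genes that the EMT factors are known to act on were read last. Of 19 epithelial genes that Snail, Zeb or Twist proteins can repress, 2 passed the filter, 6 had 0 reads in all 4 libraries, and 11, these 6 included, had at most 3 reads in every library. Cdh1, the best known target, had 2 to 3 reads per library, and Epcam had 2 reads in 1 library and 0 in the others. The 2 tested were claudins that passed the filter through 1 cell type each, so that their difference is no finding about the list: Cldn3 had 14 and 4 reads in DPPIV- FAPs against 228 and 145 in DPPIV+ FAPs, and Cldn1 had 68 and 65 against 20 and 17. Of 14 mesenchymal genes, all tested, 1 rose and 10 fell, where 15.9% of all genes tested rose and 17.2% fell, with a median log2 fold change of -0.29. Fn1, which encodes fibronectin, rose from 6370 ± 140 to 15985 ± 232 CPM (1.33). Cdh11, a cadherin of mesenchymal cells, fell from 84.6 ± 13.4 to 11.6 ± 1.69 CPM (-2.86). Postn fell by 0.83, Tnc by 0.61 and Acta2 by 0.55 on the log2 scale, each in both mice. DESeq2's Wald test called 7 of the 14, where it called 16.6% of all genes tested, and Acta2 had an adjusted p of 0.0544 there.

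**Figure D5:**
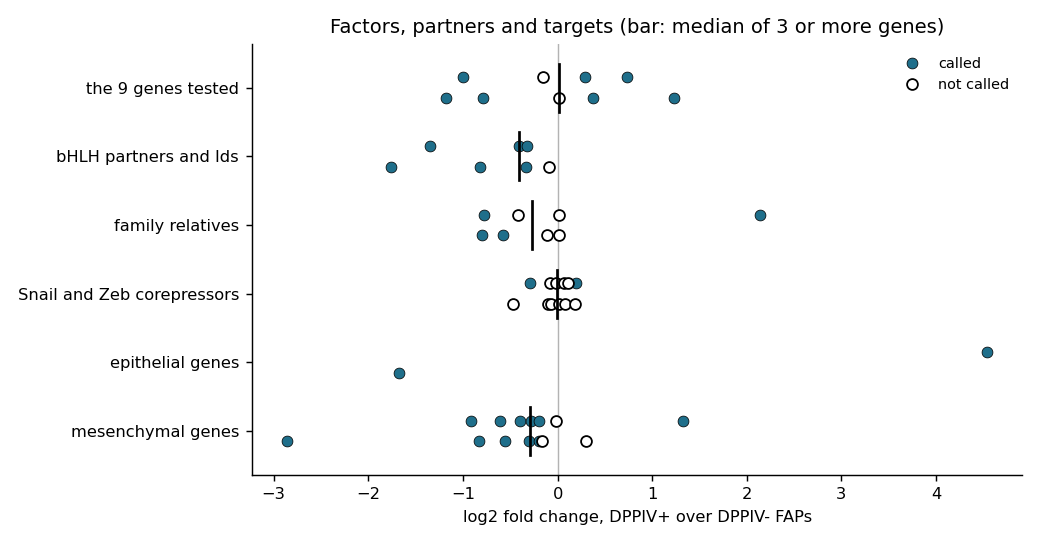
Log2 fold changes, DPPIV+ over DPPIV- FAPs, of the 9 factors tested and of the 5 lists of partners, relatives, corepressors and targets, filled where called and open where not, with a bar at the median of lists of 3 or more genes tested. The factors spread from -1.18 to 1.23, the bHLH partners and Id genes all lie under 0, and Cldn3 stands at 4.54.

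Markers of other cell types moved along with these differences in part. The summed level of 8 mural cell markers was 190 and 189 CPM in the DPPIV- libraries, against 88.3 and 103 CPM in the DPPIV+ libraries, and 7 of the 8 were lower past the threshold, as Prrx2, Snai1 and Snai2 were, where 17.2% of all genes tested were lower. Kcnj8, 1 of the 7, passed the filter only through DPPIV- FAPs. DESeq2's Wald test called 4 of the 8 mural markers, where it called 16.6% of all genes tested, also the background for its counts that follow. Of 7 tenocyte markers, 5 were higher in DPPIV+ FAPs and 2, Thbs4 and Egr1, were lower (log2 fold changes -0.20 and -0.37), where 15.9% of all genes tested were higher and 17.2% lower. Thbs4 was lower in mouse 1 only (log2 ratios -0.47 and 0.08), and its libraries overlapped between cell types. DESeq2's Wald test gave Thbs4 an adjusted p of 0.851, and called 5 of the 7 higher and 1 lower. The 5 included Scx, which passed the filter only through DPPIV+ FAPs. The sum over all 7 was 4409 and 4985 against 4028 and 5757 CPM, of which Thbs4 and Egr1 made up the most, with 1598 and 2092 CPM of Thbs4 and 2602 and 2580 CPM of Egr1 in the DPPIV- libraries. This sum therefore says little about the 5 markers that were higher, and Egr1 is counted again among the 11 genes that follow. The 11 genes of the early response to dissociation summed to 12817 and 12676 CPM in the DPPIV- libraries, against 11497 and 10190 CPM. Of these, 8 were lower and 2 higher, where 17.2% and 15.9% of all genes tested were, and DESeq2's Wald test called 6 lower and 2 higher. Summed macrophage and blood cell markers were 314 and 190 CPM against 199 and 180 CPM, and overlapped between cell types. Of 7 of these markers tested, 0 were higher and 3 lower, where 15.9% and 17.2% of all genes tested were. DESeq2's Wald test called 0 of the 7. Of 7 endothelial genes tested, Tek was higher and 4 were lower in DPPIV+ FAPs, beside the same 15.9% and 17.2% of all genes tested. DESeq2's Wald test called Tek alone. The sum of the endothelial list, 258 and 189 against 510 and 464 CPM, was mostly Tek, with 187 and 149 against 466 and 426 CPM. No gene of these 5 lists was at 0 reads in all libraries. The part of these cells or of the dissociation in the differences was not tested, and in bulk libraries fewer cells of a type and less RNA per cell cannot be told apart.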

How the data were processed

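For demultiplexing the authors used bcl2fastq2 2.20, for alignment STAR against mm10, and for counting RnaReadCounter, and they deposited raw counts per gene symbol for 4 libraries, with no normalization. The labels name a NEBNext Ultra II stranded kit and the methods a TruSeq Stranded kit, and neither gives the annotation release or the strand setting of the counting. The 10 genes and all lists were chosen with earlier results of these data known.

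A gene was tested if 2 or more libraries reached 2 CPM, in R 4.3.3 with edgeR 4.0.16 (TMM, quasi-likelihood F test, two-sided, Benjamini-Hochberg, threshold 0.05), with terms for mouse and for cell type. The study's methods have the same terms and a like filter but use DESeq2 with its Wald test. The mouse number in the labels pairs the libraries, and deviations from the group means correlated between cell types (0.415 across genes). The prior degrees of freedom were infinite, so each gene took the spread of genes of like abundance, and n = 2 mice limits every p. DESeq2 1.42.0 was run as an alternative. Standard errors are the log2 fold change over the square root of F, intervals 1.96 standard errors. Positions and lengths are from GENCODE M21 (GRCm38). Transcripts were compared with BLAST 2.17.0. The tests were first tried on simulated data. All 10 genes are named, and from each list at most the 6 genes of largest absolute log2 fold change that were called and moved alike in both mice. A few others that were not called, not tested or, as Thbs4, did not move alike were added after their values were seen. The values of 1 gene that this rule names are not reported here.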

Additional observations from a re-analysis of the deposited data

How the results depend on the processing

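With mouse left out of the model (no replicate block), 2120 genes were called in all (18.3% of genes tested). DESeq2's Wald test called 1918 (16.6%) and the test against a 1.5-fold change 1092 (9.42%), against 3826 (33.0%). With 2 CPM required in at least 3 libraries, 31.3% of 11194 genes were called. These shares are the background for the list counts below. Under each of the 10 alternatives with both mice, Osr2 and Zeb1 stayed higher and Prrx2, Snai1 and Snai2 lower past the threshold. With no block, the adjusted p of these genes in edgeR's test ran from 0.000191 for Osr2 to 0.00224 for Snai2. The test against a 1.5-fold change left 2 factors higher, Osr2 and Zeb1. It called 3 of the bHLH partners and Id genes, 1 of the relatives, 0 of the corepressors (0 at an unadjusted p under 0.05) and 4 of the mesenchymal genes. The relatives called were 2 with DESeq2, with no block and with 2 CPM in at least 3 libraries. Corepressors were 0 with DESeq2 and 0 with no block in edgeR, where 0 and 2 had an unadjusted p under 0.05. Mesenchymal genes called were 7 with DESeq2 and 6 with no block. With 2 CPM in at least 3 libraries, 0 epithelial genes were tested. Offsets for GC content and length covered 96.7% of genes and changed no call of a factor, and neither did RLE or upper-quartile scaling. The log2 fold change of Osr1, never called, ran from -0.02 to 0.10. Leaving out a mouse leaves no spread to test, and gives the ratio in the other mouse.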
